A study of Mus musculus with 4 samples.

Results

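The C/EBP family of transcription factors was examined by ATAC-seq at its genes Cebpa, Cebpb, Cebpd, Cebpe and Cebpg. Overlapping peaks (1 bp or more) from any of the 4 libraries were joined, which gave 70744 regions. A region belonged to a C/EBP gene when the transcription start site (TSS) nearest to its midpoint was that of the gene, within 100 kb, or when it overlapped the gene body. This rule took 49 regions of 70744, which were 14 at Cebpa, 5 at Cebpb, 8 at Cebpd, 7 at Cebpe and 15 at Cebpg. Of these, 8 lay in a promoter, taken as the 1 kb before a TSS and the 200 bp after it, and 41 were distal.

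Large peritoneal macrophages (LPMs), the resident macrophages of the peritoneal cavity, were sorted from C57BL/6 mice aged 9 weeks, with 40000 cells for each library. Rxrab fl/fl mice carry floxed Rxra and Rxrb alleles without Cre and served as controls. Mice labelled LysMCre+ Rxrab fl/fl carry the same alleles with Cre driven by the lysozyme M promoter, which is active in myeloid cells in general and is not confined to LPMs. There were 2 libraries for each genotype, which are called control 1 and control 3 (Rxrab fl/fl) and LysMCre+ 1 and LysMCre+ 2 (LysMCre+ Rxrab fl/fl) after their replicate numbers in the labels. Per the study's Reporting Summary, ATAC-seq samples were excluded when they did not group with their genotype, so the spread between libraries may be understated.

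C/EBP proteins are basic leucine zipper factors that bind DNA as homodimers or as heterodimers with each other or with ATF factors. C/EBPα and C/EBPβ act with PU.1 at the enhancers of macrophages, and C/EBPβ is needed for several resident macrophage populations, those of the peritoneum among them. C/EBPδ is induced with inflammation and C/EBPε acts late in granulocyte development. C/EBPγ lacks an activation domain, and its heterodimers can dampen or redirect other family members. RXR is the shared partner of many nuclear receptors and binds paired copies of a short site, such as DR1 and DR5.

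The libraries differed in the number of peaks, with 38048 and 16097 in controls 1 and 3 against 65421 and 55581 in LysMCre+ 1 and 2. The estimated depth, which ran from 9.92 to 18.4 M tags if the mouse genome preset of the peak caller was used, did not follow these numbers. Control 3 had the lowest estimate, with 9.92 M tags, close to the 10.1 M of LysMCre+ 2. The strength of a peak is given as its fold enrichment, which is the pileup of tags at the summit over the local background, with 1 added to each. At the promoters of LPM markers, a peak was called in 6 and 4 of 8 genes in the controls and in 8 of 8 in both LysMCre+ libraries, with summed fold enrichments of 57.2 and 27.9 against 62.6 and 61.3. Markers of T cells, mast cells or eosinophils and mesothelial cells had no promoter peak in any library, and of 6 B cell markers Ebf1 had a peak in 3 libraries and the other markers had none. Granulocyte markers had a promoter peak in 1 and 0 of 8 genes in the controls and in 4 and 2 in LysMCre+, with summed fold enrichments of 13.98 and 0 against 36.9 and 21.4, and S100a9, Elane, Mpo and Ltf had none in any library. Of the others, S100a8 had 13.98 in control 1 and 16.6 and 16.1 in LysMCre+, Camp had 7.31 and 5.29 in LysMCre+, and Ly6g and Cxcr2 had 6.45 and 6.56 in LysMCre+ 1. Markers of small peritoneal macrophages or dendritic cells had 3 and 1 of 6 against 5 and 4, with summed fold enrichments of 26.0 and 6.37 against 40.5 and 35.0, and Ccr2 had none. These lists moved with the number of peaks, and their part in the results was not tested. In a bulk library, more cells of a kind and more open chromatin per cell cannot be told apart. The promoter peaks of the targeted genes had fold enrichments of 6.43 and 5.77 at Rxra and 8.36 and 5.71 at Rxrb in the controls, against 10.4 and 7.27 at Rxra and 7.17 and 4.79 at Rxrb in LysMCre+. A promoter peak says nothing on the deletion of the floxed exons.

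The sequences of the promoter peaks show what these sites hold. Each covers up to 100 bases on either side of the summit of the strongest peak, read from the reference genome GRCm38.p6 (mm10) on the strand of the gene, and it stops where an untranslated exon starts. Capitals mark matches, on either strand, to the pattern GGGNGGGG of KLF factors or to GAGGAAGT of PU.1, and the Cebpg promoter holds neither.
Cebpa promoter, chr7:35119015-35119215, plus strand: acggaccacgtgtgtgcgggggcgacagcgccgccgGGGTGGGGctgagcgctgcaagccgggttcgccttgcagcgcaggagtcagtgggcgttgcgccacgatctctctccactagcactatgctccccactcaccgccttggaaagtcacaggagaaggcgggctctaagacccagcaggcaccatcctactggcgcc
Cebpg promoter, chr7:35056567-35056763, minus strand: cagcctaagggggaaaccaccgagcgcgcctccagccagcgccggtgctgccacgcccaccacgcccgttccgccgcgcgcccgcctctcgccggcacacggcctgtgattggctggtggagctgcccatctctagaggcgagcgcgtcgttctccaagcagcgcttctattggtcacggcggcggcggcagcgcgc
Cebpd promoter, chr16:15887095-15887285, plus strand: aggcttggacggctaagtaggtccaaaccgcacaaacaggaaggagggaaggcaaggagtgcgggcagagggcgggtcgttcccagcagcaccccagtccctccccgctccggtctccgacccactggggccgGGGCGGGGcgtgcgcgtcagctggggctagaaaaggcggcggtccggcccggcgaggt
Cebpb promoter at the TSS, chr2:167688778-167688914, plus strand: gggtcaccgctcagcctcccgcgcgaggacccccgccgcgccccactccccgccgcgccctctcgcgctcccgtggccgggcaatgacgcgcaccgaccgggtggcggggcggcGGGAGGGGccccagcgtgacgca
Cebpe promoter, chr14:54712954-54713154, minus strand: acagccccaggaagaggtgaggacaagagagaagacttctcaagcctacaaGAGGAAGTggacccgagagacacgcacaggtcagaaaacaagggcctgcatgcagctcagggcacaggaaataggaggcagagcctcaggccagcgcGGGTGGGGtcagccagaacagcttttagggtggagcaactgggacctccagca

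Among the distal peaks, those called in all 4 libraries with the largest values or differences are shown next, since the comparison of genotypes turns on them. Capitals mark TGTGGT (RUNX) in the Cebpa sequence, TGANTCA (AP-1) in the Cebpe sequence, and overlapping matches to GGGNGGGG (KLF) and TGACGTCA (the cyclic AMP response element, CRE) in the Cebpg sequence. In the Cebpb sequence they mark the pattern CCNNNAGNNGGC of CTCF, the factor that anchors chromatin loops.
Cebpa −20.4 kb, chr7:35098835-35099035, plus strand: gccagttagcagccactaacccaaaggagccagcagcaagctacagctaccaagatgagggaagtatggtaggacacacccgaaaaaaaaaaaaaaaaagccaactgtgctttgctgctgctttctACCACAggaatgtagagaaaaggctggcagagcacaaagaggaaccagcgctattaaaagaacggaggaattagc
Cebpb −8.81 kb, chr2:167680005-167680205, plus strand: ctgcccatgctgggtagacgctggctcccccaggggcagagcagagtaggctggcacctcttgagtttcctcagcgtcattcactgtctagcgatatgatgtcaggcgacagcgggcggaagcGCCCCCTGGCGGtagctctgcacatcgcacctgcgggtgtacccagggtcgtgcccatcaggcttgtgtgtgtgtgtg
Cebpe −21.5 kb, chr14:54733582-54733782, minus strand: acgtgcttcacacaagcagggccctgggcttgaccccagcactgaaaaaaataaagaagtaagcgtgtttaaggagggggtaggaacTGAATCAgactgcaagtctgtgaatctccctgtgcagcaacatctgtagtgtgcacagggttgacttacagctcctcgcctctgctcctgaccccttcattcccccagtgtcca
Cebpg +29.4 kb, chr7:35027127-35027327, minus strand: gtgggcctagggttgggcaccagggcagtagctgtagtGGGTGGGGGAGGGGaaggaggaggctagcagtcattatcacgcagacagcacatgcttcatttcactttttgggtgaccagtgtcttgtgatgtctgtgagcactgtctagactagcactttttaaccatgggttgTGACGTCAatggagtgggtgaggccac

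Of the peaks called in LysMCre+ alone, 4 are shown as examples that hold a match. Capitals mark TTGCNNAA, a loose form of the C/EBP site, in the first and second sequences, AP-1 in the third, and AP-1 followed by CTCF in the last.
Cebpa +13.9 kb, chr7:35133097-35133297, plus strand: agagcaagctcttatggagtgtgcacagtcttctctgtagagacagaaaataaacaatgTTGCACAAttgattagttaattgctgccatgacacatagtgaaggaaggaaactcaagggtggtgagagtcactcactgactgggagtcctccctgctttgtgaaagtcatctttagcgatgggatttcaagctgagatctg
Cebpg −0.71 kb, chr7:35057184-35057384, minus strand: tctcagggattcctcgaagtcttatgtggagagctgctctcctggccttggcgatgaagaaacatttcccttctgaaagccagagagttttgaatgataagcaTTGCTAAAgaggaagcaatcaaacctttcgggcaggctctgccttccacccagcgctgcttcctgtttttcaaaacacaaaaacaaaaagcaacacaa
Cebpe −23.6 kb, chr14:54735605-54735805, minus strand: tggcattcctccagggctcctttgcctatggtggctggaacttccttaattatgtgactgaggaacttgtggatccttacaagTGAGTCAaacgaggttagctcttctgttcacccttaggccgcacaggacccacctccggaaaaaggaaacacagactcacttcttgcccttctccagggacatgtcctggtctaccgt
Cebpe −2.10 kb, chr14:54714158-54714358, minus strand: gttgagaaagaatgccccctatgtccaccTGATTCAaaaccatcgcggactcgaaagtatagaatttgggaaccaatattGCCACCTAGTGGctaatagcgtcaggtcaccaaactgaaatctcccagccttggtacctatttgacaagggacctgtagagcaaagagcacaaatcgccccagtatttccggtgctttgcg

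The motif content of the 49 C/EBP regions lay near that of all regions. The C/EBP pattern was present in the summit window of 4 of 49 regions, against 11.1% of all 70744 windows of the same length. These were the regions at Cebpa +8.65 and +13.9 kb, Cebpd +27.9 kb and Cebpg −0.71 kb, where a distance is that of the midpoint from the TSS and negative values are upstream. Over whole regions, which differ in length, the pattern was present in 14 of 49 against 19.6%. The composite C/EBP and ATF site TGATGCAA was found in 0 of 49 windows, against 0.95%. PU.1 sites were found in 7 windows (9.3% of all), AP-1 sites in 7 (12.7%), RUNX sites in 7 (17.1%), KLF sites in 10 (16.4%), MEIS sites TGACAG in 5 (16.6%), GATA sites AGATAA in 2 (6.44%) and the CRE in 1 (0.862%). The IRF pattern, GAAA repeated after a gap of 2 bases, was found in 0 (3.0%). The RXR patterns NGGTCANNGGTCA (DR1) and NGGTCANNNNNNGGTCA (DR5) were found in 0 windows, against 0.133 and 0.107% of all, so that few matches could be found in 49 windows. Over whole regions DR1 was found in 0 of 49 (0.297% of all) and DR5 in 1 of 49 (0.187% of all). Both strands were searched in each case, and the letters GGTCA are common to DR1 and DR5. The CTCF pattern, which was added after these sequences had been read, was found in 5 windows (11.5% of all), of which 4 were among the 12 regions called in LysMCre+ alone, a class of which 14.7% held it over all regions. A match is a run of letters and does not show binding. The median GC content of the windows was 53.2%, against 51.7% over all regions.

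The first comparison asked in which libraries the regions of the C/EBP genes were open at all. Peaks were called in 24 and 10 of the 49 regions in controls 1 and 3, and in 44 and 35 in LysMCre+ 1 and 2. As shares these are 49.0, 20.4, 89.8 and 71.4%, and over all 70744 regions the shares were 52, 21.9, 90.7 and 77.2% in the same order. In each library the C/EBP regions were thus called about as often as other regions. The genes differed, with 7, 3, 14 and 11 of 14 regions called at Cebpa, 3, 3, 5 and 4 of 5 at Cebpb, 3, 1, 7 and 5 of 8 at Cebpd, 4, 1, 5 and 5 of 7 at Cebpe, and 7, 2, 13 and 10 of 15 at Cebpg. Control 3 had the lowest count at each gene but Cebpb, where it equalled control 1.

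**Figure D1:**
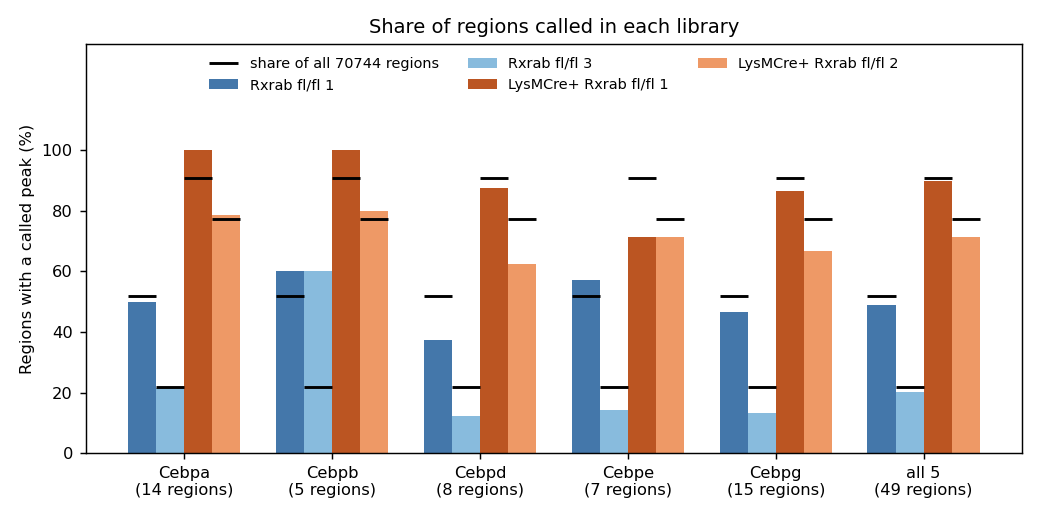
Bars give the percentage of the regions of each C/EBP gene, and of all 49, in which a peak was called in each of the 4 libraries, and black lines give the same share over all 70744 regions. Over the 49 regions the bars stand at 49.0, 20.4, 89.8 and 71.4%, with the lines at 52, 21.9, 90.7 and 77.2%.

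Of the 49 regions, 10 (20.4%) were called in all 4 libraries, against 21.5% of all regions. Called in both LysMCre+ libraries and in neither control library were 12 (24.5%, against 22.8% of all regions), and called in both control libraries alone were 0, against 0.0452% of all regions. A further 10 were missed in control 3 alone (25.5% of all regions) and 15 were called in 1 library (26.9% of all regions), of which 13 were in a LysMCre+ library. The remaining 2 were called in 1 library of each genotype. These shares lie near the background, so the counts are no result about the C/EBP genes. When the same number of peaks, 16097, was taken from each library, 14 regions were left, of which 1 (7.1%) was called in LysMCre+ alone and 6 (42.9%) in all 4 libraries, against 7.82 and 46.1% of all 22300 regions. The 1 region left was that at Cebpg +27.8 kb, called otherwise also in control 1, with 3.37 there against 7.21 and 5.28 in LysMCre+. At this number of peaks, 0 of the 14 regions were called in both control libraries alone, against 7.22% of all 22300 regions. Without control 1 the 12 regions became 22 (46.8%, against 49.2% of all regions), and without LysMCre+ 2 they also became 22 (47.8%, against 44.0% of all regions).

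**Figure D2:**
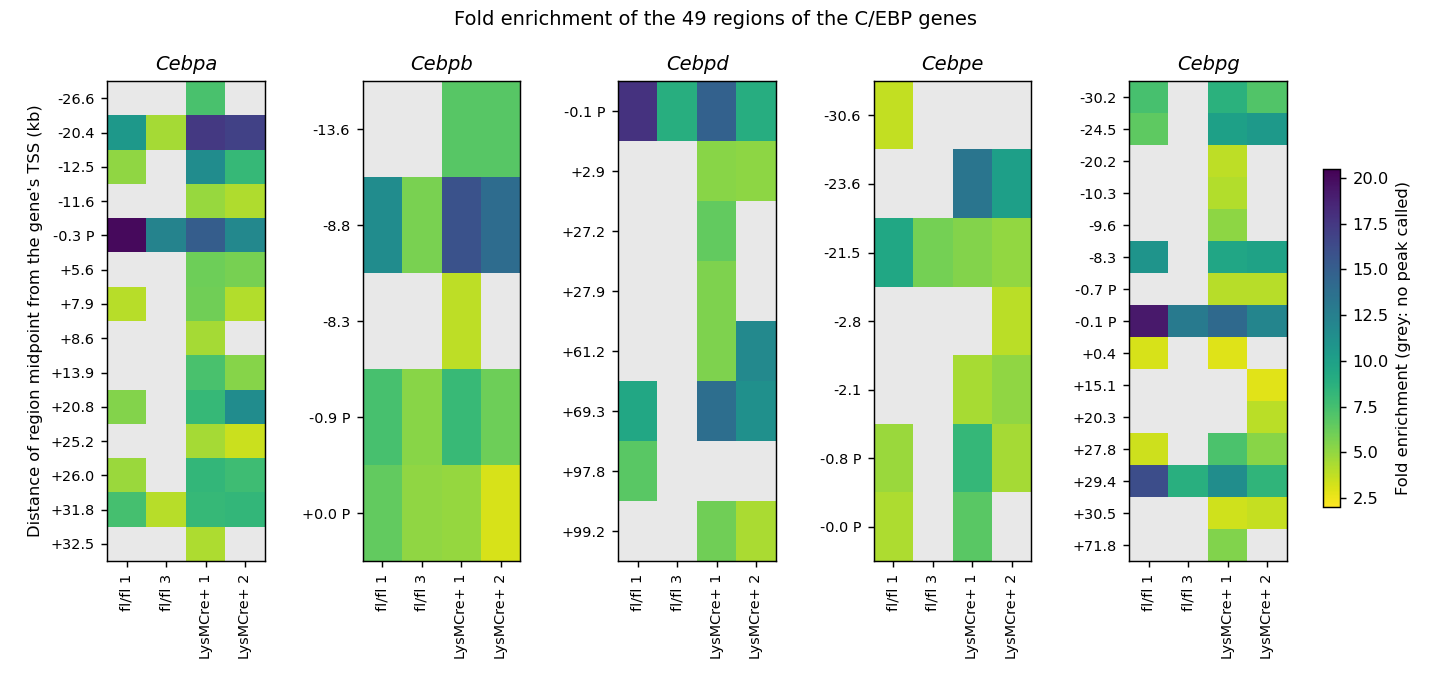
Colour gives the fold enrichment of the highest peak in each of the 49 regions (rows, ordered by the distance of the midpoint from the TSS of the gene in kb, P for promoter) in each library (columns), and grey marks a region without a called peak. Rows without grey are the 10 regions called in all 4 libraries, and the grey cells are most frequent in the column of control 3, where 10 of 49 regions were called.

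The promoters of Cebpa, Cebpb, Cebpd and Cebpg were called in all 4 libraries, as were those of 35.8% of the 24963 annotated genes. Cebpa (chr7:35119293-35121928, plus strand), a gene without introns that drives myeloid commitment, had promoter fold enrichments of 20.1 and 12.2 in the controls and 15.0 and 11.8 in LysMCre+. Cebpg (chr7:35046422-35056566, minus strand) had 19.2 and 12.9 against 14.2 and 12.1. Cebpd (chr16:15887286-15889545, plus strand) had 17.8 and 8.88 against 14.7 and 9.01. In each of these the values of the genotypes overlapped before the libraries were centred, with control 1 highest. Cebpb (chr2:167688915-167690432, plus strand) had 2 promoter regions, at −0.93 kb with 7.38 and 5.31 against 8.06 and 6.10, and at the TSS with 6.44 and 5.07 against 4.93 and 3.14. At the TSS both control values were the higher ones.

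Low fold enrichment at the Cebpb promoter stood beside a high local background. The pileup at its −0.93 kb region was 219 and 40 tags in the controls and 234 and 145 in LysMCre+, over backgrounds of 28.8 and 6.72 against 28.2 and 22.9. At the Cebpd promoter the pileup was 152 and 26 against 130 and 59, over backgrounds of 7.60 and 2.04 against 7.90 and 5.66. The order of the promoters therefore depends on the measure. By fold enrichment, the stronger Cebpb region stood at the 15.6 and 8.4 percentiles of promoters with a peak in the controls and at the 18.2 and 14.0 percentiles in LysMCre+. Among all peaks of a library, its fold enrichment was at the 43.5 and 17.7 percentiles in the controls and at 49.6 and 36.9 in LysMCre+. Among the same peaks, the −log10 of its q value, which follows the pileup more closely, ranked higher. It was at the 86.4 and 61.4 percentiles in the controls and at the 93.3 and 89.5 percentiles in LysMCre+.

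Cebpe (chr14:54710363-54712174, minus strand), the granulocyte member, had the lowest promoter fold enrichment in control 1 and LysMCre+ 2, taking the strongest promoter region of each gene. In LysMCre+ 1 it stood just above Cebpb, with 8.20 against 8.06. The Cebpe region at −0.77 kb had 4.82 in control 1, no peak in control 3, and 8.20 and 4.46 in LysMCre+. The region at the TSS had 4.28 in control 1 and 6.76 in LysMCre+ 1, and no peak in the other libraries. Its promoter ranked at the 4.4 percentile of promoters with a peak in control 1 and at the 18.9 and 4.2 percentiles in LysMCre+. Ordered by mean fold enrichment, Cebpa and Cebpg stood above Cebpd, then Cebpb and Cebpe, and neighbours in this order overlapped in their ranges over the libraries, except Cebpd and Cebpb, where the lowest Cebpd value (8.88) was above the highest Cebpb value (8.06).

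The summits lay close together over the libraries at some promoters and not at others. At Cebpa the summit was at −169 to −179 bp from the TSS in the 4 libraries, and at Cebpd it was at −64 to −94 bp. At the Cebpg promoter it lay at −97 and −112 bp in the controls and at −3 and 19 bp in LysMCre+. At the Cebpb TSS it lay at −37 and −105 bp in the controls and at 83 and 12 bp in LysMCre+. At Cebpg and at the Cebpb TSS the positions did not overlap between the genotypes. They also did not overlap at Cebpd, with −91 and −64 bp in the controls and −92 and −94 bp in LysMCre+. At Cebpb −0.93 kb they lay at −1155 and −1146 bp against −1163 and −1159 bp, again without overlap. At Cebpa they overlapped. The share of all promoters without overlap was not counted. The lack of overlap was seen after the values were known. With 2 libraries per genotype a two-sided exact permutation test cannot go below p = 0.333.

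The distal regions called in all 4 libraries included some of the strongest of the family. The region at Cebpa −20.4 kb (chr7:35098603-35099280), between genes, had fold enrichments of 10.7 and 4.46 in the controls and 17.5 and 16.9 in LysMCre+. Before the libraries were centred the groups did not overlap, and LysMCre+ was higher. At Cebpb −8.81 kb (chr2:167679916-167680295), the site of the CTCF match above, the values were 11.5 and 5.75 against 15.8 and 13.99, again without overlap. By median over all 15199 regions called in all 4 libraries, control 3 was also the lowest, with a fold enrichment of 7.52. The other medians were 14.52 in control 1 and 15.13 and 12.02 in LysMCre+ 1 and 2. The share of all regions without overlap before centring was not counted, and the part of control 3 in it was not tested.

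A pair of distal regions had the opposite order at least in part. At Cebpe −21.5 kb (chr14:54733474-54733875), in an intron of Slc7a8, a transporter gene next to Cebpe, the fold enrichment was 9.50 and 5.84 in the controls and 5.42 and 5.03 in LysMCre+. Both control values were higher. At Cebpg +29.4 kb (chr7:35026789-35027495), in an intron of the peptidase gene Pepd, it was 16.1 and 8.81 in the controls against 11.4 and 8.42, and these overlapped. The region at Cebpa +31.8 kb had 7.47 and 3.97 against 8.08 and 8.25.

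Cebpa and Cebpg lie next to each other on chromosome 7, and 29 of the 49 regions fall on their stretch. A region 37.3 kb downstream of the Cebpa TSS (chr7:35156292-35156847), the place of a known myeloid enhancer of Cebpa, lies nearer to the TSS of Slc7a10 and was not among the 49. It had a fold enrichment of 8.92 in control 1, no peak in control 3, and 13.2 and 10.5 in LysMCre+. No region lay within 2 kb of the known enhancer 6 kb downstream of Cebpe, and the nearest was 10.6 kb downstream of its TSS.

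**Figure D3:**
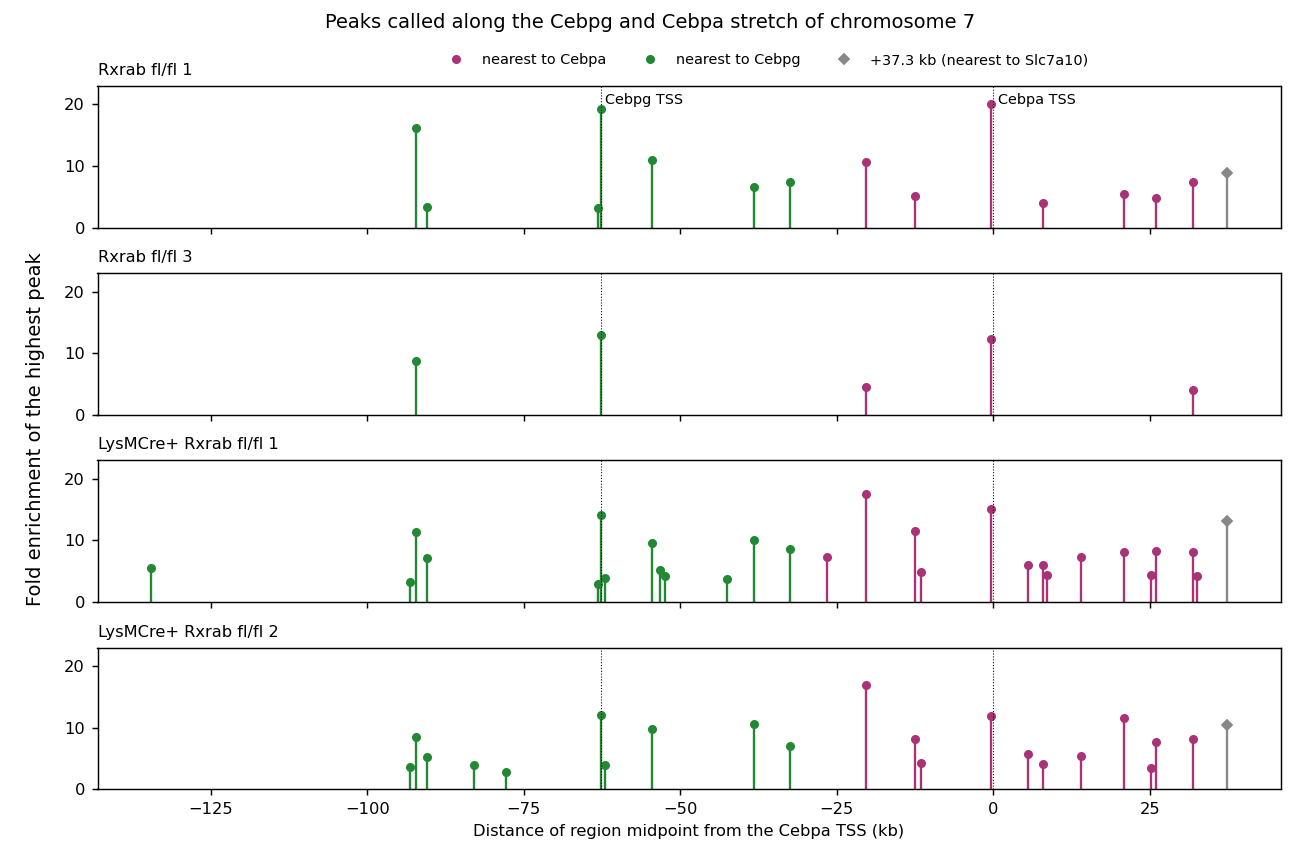
Each line gives the fold enrichment (vertical axis) of the highest peak of a region at its distance in kb from the Cebpa TSS (horizontal axis, along the plus strand), in 1 panel for each library, coloured by the gene with the nearest TSS. Both promoters are called in every panel, the peak 20.4 kb upstream of Cebpa reaches 17.5 and 16.9 in LysMCre+ against 10.7 and 4.46 in the controls, and the panel of control 3 holds 5 peaks.

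The 12 regions called in LysMCre+ alone were mostly weak. Their fold enrichments ran from 3.34 to 13.3 with a median of 5.43 in LysMCre+ 1, and from 3.49 to 11.8 with a median of 5.12 in LysMCre+ 2. The medians over all regions of that class were 6.88 and 5.77. They were found at Cebpa −11.6, +5.57, +13.9 and +25.2 kb, Cebpb −13.6 kb, Cebpd +2.87, +61.2 and +99.2 kb, Cebpe −23.6 and −2.10 kb, and Cebpg −0.71 and +30.5 kb. All 5 genes thus had at least 1. The strongest, at Cebpe −23.6 kb (chr14:54735387-54736078), with its midpoint in a coding exon of Slc7a8, had fold enrichments of 13.3 and 10.1 and pileups of 53 and 37 tags. At Cebpd +61.2 kb, in an intron of Spidr, the values were 5.59 and 11.8. The other 10 regions stayed between 3.34 and 7.30. The absence of a call in the controls is not a value of 0, since signal under the threshold is not in the peak lists.

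The 10 regions missed in control 3 alone had lower fold enrichments in control 1 than in both LysMCre+ libraries at some places and not at others. At Cebpa +20.8 kb they were 5.43 against 8.12 and 11.5, at Cebpa −12.5 kb 5.05 against 11.5 and 8.09, and at Cebpd +69.3 kb 9.43 against 13.8 and 11.2. At Cebpg −8.28 kb the order was the reverse, with 10.9 against 9.59 and 9.83. With 1 control value at each, these differences have no replicate check on that side.

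The second comparison tested the change in size of the 10 regions called in all 4 libraries, within a fit over all 15199 such regions. Log2 fold enrichment was centred on the median of each library and tested with limma, a region passing with a log2 difference past 1 and an adjusted p (Benjamini-Hochberg) under 0.05. None of the 10 C/EBP regions passed, and over all regions 6 (0.0395%) were higher and 7 (0.0461%) were lower in LysMCre+. At an unadjusted limma p under 0.05 there were 8 of the 10 C/EBP regions, against 22.0% of all regions, whereas on the summit pileup described below there were 3 of the 10, against 33.2% of all regions. The largest positive difference was that of Cebpa −20.4 kb, with a log2 difference of 0.95 ± 0.22 (SE, limma, n = 2 libraries per genotype, 95% interval 0.47 to 1.43, adjusted p = 0.0653). Cebpb −8.81 kb followed with 0.50 ± 0.21 (adjusted p = 0.184, limma), which was 0.14 without control 3. The most negative were the Cebpb TSS with −0.91 ± 0.24 (adjusted p = 0.0809, limma) and Cebpe −21.5 kb with −0.88 ± 0.21 (adjusted p = 0.0683, limma).

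Of the 8 promoter regions, 5 were called in all 4 libraries and tested. Both Cebpe promoter regions and Cebpg −0.71 kb lacked a peak in at least 1 library and were not tested. The tested promoter regions all had negative differences in centred log2 fold enrichment. They were −0.60 at Cebpa (95% interval −1.05 to −0.15), −0.63 at Cebpg (−1.10 to −0.16), −0.49 at Cebpd (−0.96 to −0.02), and −0.21 (−0.69 to 0.28) and −0.91 (−1.43 to −0.38) at the Cebpb regions at −0.93 kb and the TSS. Their limma adjusted p ran from 0.0809 to 0.611. The median over these 5 was −0.60, against −0.18 over all 7033 promoter regions, of which 69.6% were negative. On the summit pileup the median of the same 5 was −0.39, against −0.20 over all promoter regions, and the Cebpb TSS had −0.37 (adjusted p = 0.27, limma). Without centring it was −0.23, against 0.19 over all promoter regions, with 0.16 at the Cebpb −0.93 kb region and negative values at the others. The 5 distal regions ran from −0.88 to 0.95 with a median of 0.22, against 0.00 over the other 8166 regions. In 9 of the 10 regions the centred values of the genotypes did not overlap, against 55.2% of all regions, and the exception was Cebpb −0.93 kb.

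The summit pileup, which is the whole number of tags that the deposited enrichment and p value stand for, gave another count. Of the 10 regions, 2 passed the same threshold, against 379 of 15195 regions (2.49%) that were higher and 757 (4.98%) that were lower in LysMCre+. Cebpa −20.4 kb rose from 34 and 9 tags in the controls to 72 and 63 in LysMCre+, a centred log2 difference of 1.08 ± 0.25 (SE, n = 2 per genotype, adjusted p = 0.032, limma). Cebpe −21.5 kb fell on the centred scale, with 45 and 15 tags in the controls and 21 and 18 in LysMCre+ and a centred log2 difference of −1.28 ± 0.29 (adjusted p = 0.0294, limma). Its tags as such overlapped between the genotypes, since control 3 had 15, and the decrease is relative to the median of each library. Cebpb −8.81 kb, with 55 and 12 tags against 104 and 74, had 0.91 ± 0.22 (adjusted p = 0.0348, limma) and did not reach the limit on the difference. These 3 regions had the same direction on both measures, and the difference at Cebpg +29.4 kb turned from −0.65 in fold enrichment to 0.23 in pileup. There the background at the summit was 10.2 and 2.86 tags in the controls and 16.5 and 15.4 in LysMCre+. Cebpb −0.93 kb also turned, from −0.21 to 0.11.

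**Figure D4:**
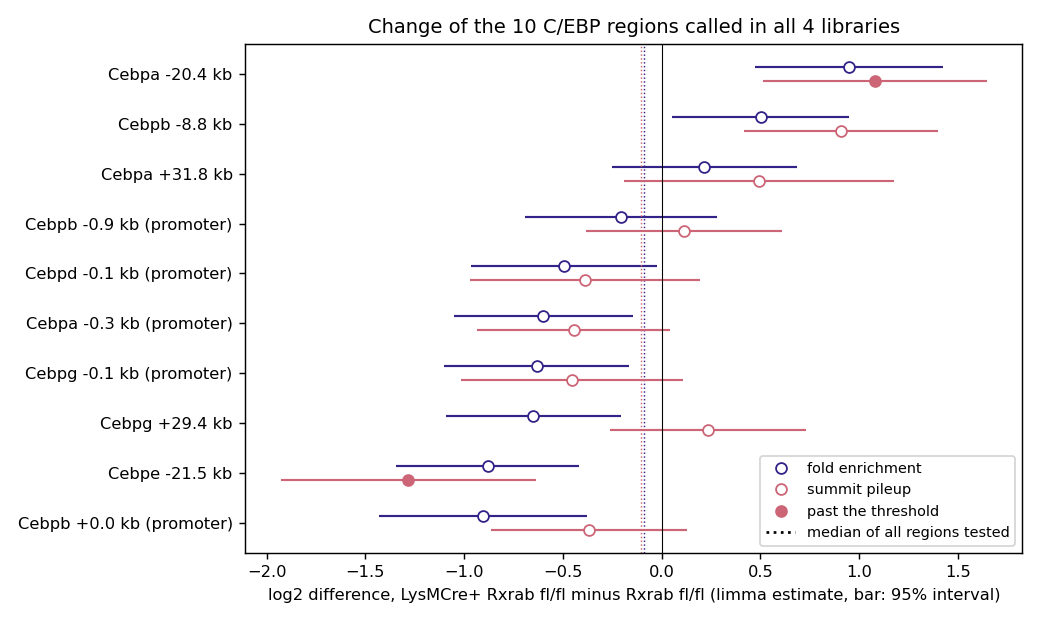
Points give the limma estimate of the log2 difference, LysMCre+ minus the controls, of the 10 C/EBP regions called in all 4 libraries, in centred fold enrichment and in centred summit pileup, with 95% intervals as bars and dotted lines at the medians of all regions tested (−0.09 and −0.10). Filled points, past the threshold, are Cebpa −20.4 kb at 1.08 and Cebpe −21.5 kb at −1.28 on the pileup, and the 5 promoter regions lie below 0 in fold enrichment.

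When single libraries were left out, the calls in fold enrichment changed with the control libraries. Without control 1, 3 of the 10 regions passed, 1 higher and 2 lower in LysMCre+, against 1.61% higher and 3.55% lower of all 15224 regions in that fit. These were Cebpa −20.4 kb (1.10, adjusted p = 0.00142, limma), Cebpe −21.5 kb (−1.004, adjusted p = 0.00219, limma) and the Cebpb TSS (−1.21, adjusted p = 0.000898, limma). Without control 3, Cebpe −21.5 kb alone passed (−1.09, adjusted p = 0.0419, limma), against 2.21% higher and 1.21% lower of all 33263 regions in that fit. The positive differences were smaller without control 3, at 0.46 for Cebpa −20.4 kb (adjusted p = 0.258, limma) and 0.14 for Cebpb −8.81 kb (adjusted p = 0.73, limma). The difference at the Cebpd promoter, −0.49 with all libraries, was −0.86 without control 3 and −0.30 without LysMCre+ 2. Without LysMCre+ 1, and without LysMCre+ 2, 0 passed. A lone library in a genotype was assumed to vary like the other genotype. The fit without control 3 held 20 C/EBP regions in place of 10, so the counts of regions that passed are not out of the same number.

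Genes whose promoters varied most like those of the C/EBP genes were taken from the 8948 genes with a promoter called in all 4 libraries, by the Euclidean distance of centred log2 fold enrichment over the 4 libraries. Nearest to Cebpa were Ehd4 (0.093), Nt5c3 (0.106) and Actr2 (0.111). Nearest to Cebpg were Nt5c3 (0.055), Actr2 (0.066) and Ddias (0.078), so that Cebpa and Cebpg shared 2 of their 3. Cebpb was nearest to Tle3 (0.03), Atf6 (0.116) and Sorbs3 (0.118), and Cebpd to Faf2 (0.03), Zfp281 (0.141) and Cyren (0.141). With 4 libraries and 8948 genes, near neighbours are found for most patterns.

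Of 11 partners and inhibitors of C/EBP factors, promoters were called in 11 and 8 in the controls and in 11 and 10 in LysMCre+. Over all 24963 genes a promoter was called in 49.1, 35.9, 55.4 and 52.9% in the same order. The strongest were Atf4, a stress response factor that pairs with C/EBP proteins, with 17.9 and 13.9 in the controls and 14.7 and 9.03 in LysMCre+, and Spi1, which encodes PU.1, with 12.9 and 4.97 against 15.4 and 13.7. Their 95 regions held 28 called in all 4 libraries, a class that held 21.5% of all regions. Of these 28, 0 passed in either direction by fold enrichment and 0 by pileup. The median log2 difference of the 28 was −0.21 in fold enrichment, against −0.09 over all regions.

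Of 22 known targets of C/EBP factors, promoters were called in 11 and 6 in the controls and in 14 and 13 in LysMCre+, to be read against the shares of all genes just given. Among the strongest, Id2 had 15.7 and 9.87 against 14.1 and 11.9, and Cd14, the coreceptor for lipopolysaccharide, had 12.4 and 9.21 against 12.1 and 10.8. Of the granule genes, Mpo, Elane, Prtn3 and Ltf had no promoter peak in any library, and Camp had 7.31 and 5.29 in LysMCre+ and none in the controls. Of the acute phase genes, Lcn2 and Saa3 had none, and Hp had 5.85 in control 1 and 5.29 and 5.31 in LysMCre+. Of their 105 regions, 29 were called in all 4 libraries, against 21.5% of all regions. Of these 29, 0 passed in either direction by fold enrichment. By pileup 1 was higher and 0 were lower in LysMCre+. This was a region 16.4 kb upstream of Csf2ra (chr19:61244491-61245195), which encodes a chain of the GM-CSF receptor, with a log2 difference of 1.07 ± 0.22 (adjusted p = 0.0258, limma) and fold enrichments of 15.6 and 5.34 against 26.2 and 18.9. The median over these 29 was −0.21 in fold enrichment and −0.06 in pileup.

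The assignment to the nearest TSS decided how many regions Cebpb had. When protein-coding transcripts alone were used, Cebpb had 28 regions in place of 5, of which 23 lay nearer to the TSS of the noncoding genes A530013C23Rik or Gm14321. Of these 23, 8 were called in all 4 libraries and 3 in LysMCre+ alone, and the other genes kept the same numbers of regions. Peaks give neither the gene a region acts on nor the level of any transcript.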

How the data were processed

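ATAC-seq was carried out on LPMs, and the peak list of each of the 4 libraries was used. The authors trimmed adaptors with cutadapt 1.7, aligned reads to mm10 with Bowtie2 4.1.2, dropped duplicate and poorly mapped reads and those from mitochondria and chromosomes X and Y, and called peaks in each library with MACS2 2.1.1 (shift 100 bp, extension 200 bp, q value 0.05). The sign of the shift and any offset for the transposase were not given in the sources used here, and both move summits. The deposited lists give the fold enrichment, a ratio to the local background, and both p-value and q-value as −log10. The deposited score was not used, and the deposited summit offset placed the summits. Read counts are not analysed here, so the authors' edgeR test was not repeated.

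Fold enrichment and p-value were solved for a whole-number pileup, which succeeded for 100.0% of simulated peaks and of the peaks of each library, to a tolerance of 0.001. Regions were placed on RefSeq curated transcripts of GRCm38.p6. Calls were counted, and regions called in all 4 libraries were tested with limma 3.58.1 in R 4.3.3, without covariates. On simulated data of this comparison (15199 regions), 139 of 200 regions given a known change were found by limma with the right sign, and 0 of the others were called. The known change was past the threshold and larger than any difference seen at the C/EBP regions, so smaller changes were not tried. Nothing states that libraries of a genotype came from separate mice, so p-values measure the spread between libraries, which may be technical, and counting errors cover counting alone. Depth was 9.92 to 18.4 M tags per library as estimated from the background. The members and lists were chosen with earlier results of these data known. Named are the 5 genes, their promoter and strongest regions, regions called in all 4 libraries or in both libraries of 1 genotype alone, the known Cebpa and Cebpe enhancers, for each member the 3 promoters most like it, the 4 pathway genes with the strongest promoters and pathway genes past the threshold. Vsig4, an LPM marker on a sex chromosome, is not analysed here. The scripts ran in Python 3.11.15 (pandas 2.3.3, numpy 2.4.6, matplotlib 3.10.9, scipy 1.17.1). Alternatives were a q value of 0.01, equal peak numbers, summits 100 bp either side, other distance limits and TSS sets, other normalizations, the pileup, a looser filter, other motif windows and each library left out.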

Additional observations from a re-analysis of the deposited data

How the results depend on the processing

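The count of 12 regions called in LysMCre+ Rxrab fl/fl alone was 1 with equal peak numbers and 12 to 22 with single libraries left out, and stayed within 1.5 times under the other settings. The count for Rxrab fl/fl alone was 0 in all settings that kept the 4 libraries. The share of all regions in that class was 0.0452%, and 7.22% with equal peak numbers. With single libraries left out the count was 0 to 2. The 2 arose without Rxrab fl/fl replicate 3 (4.1%, against 1.78% of all regions). The count called in all 4 libraries was 10, and was 6 with equal peak numbers, 18 with coding transcripts only and 10 to 20 with single libraries left out. For C/EBP regions past the limma threshold (0), the pileup gave 2 and leaving out single libraries 0 to 3. For the partner and target lists (0), the pileup gave 1, a mean-variance trend 1 and leaving out single libraries 0 to 11, most without Rxrab fl/fl replicate 1. The strongest regions kept their direction at all 5 genes, though Cebpb −8.81 kb ranged from 0.14 to 0.58 with single libraries left out. Cebpe −21.5 kb passed with the pileup (−1.28), and ranged from −1.09 to −0.77 with single libraries left out. Reversed values were Cebpa +31.8 kb without Rxrab fl/fl replicate 3 (−0.10, with a range from −0.10 to 0.40 over the libraries left out), Cebpb −0.93 kb with the pileup (0.11) and without centring (0.16), and Cebpg +29.4 kb with the pileup (0.23), and the cause was not tested. The C/EBP pattern was found in 14 of 49 whole regions and DR5 in 1, most whole regions being longer than the summit windows. No paired analysis was made, since the labels record no pairing and the genotypes share replicate number 1 alone. With 2 libraries per genotype, depth and the absence of values under the peak threshold limit what can be shown, and a missing call in Rxrab fl/fl replicate 3, with 16097 peaks, carries little information.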
